A study of Mus musculus with 9 samples.

Results

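DNA methylation was compared between 2 mouse strains in cultured fibroblasts from the tail tips of adult males (label TT). The strain labelled BDF1-CAST was represented by fibroblast samples 1 and 2 and the strain labelled X1 by samples 3 and 4. Sample 1 is the sum of libraries 1 and 1a, which the submitters join as 1 sample, so 5 libraries gave 4 samples. The labels explain neither the cross BDF1-CAST nor the line X1, and no source says whether the 2 samples of a strain came from separate animals. The fibroblasts received no treatment named in the labels. Such fibroblasts served as donors of nuclei for embryos made by nuclear transfer into enucleated C57/B6 oocytes, here called NT embryos (label NTZy14), with 2 samples per strain. The comparison covers CpGs, and 100 bp windows of the genome called tiles, with at least 10 calls in each of the 4 fibroblast samples. These numbered 978777 CpGs, of 2108600 seen in any fibroblast library, and 465710 tiles. A call is 1 reading of a CpG as methylated or unmethylated, and the level is the methylated share of the calls, in percent. Levels are given for samples 1 and 2 (BDF1-CAST) against samples 3 and 4 (X1), in that order. Differences are X1 minus BDF1-CAST in percentage points. Positions are on mouse build mm9.

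In mammals a methyl group is placed on cytosine mostly where guanine follows it (CpG). Dnmt1 copies the pattern to the new strand at each cell division, Dnmt3a and Dnmt3b set new methylation, and the Tet enzymes oxidise it. CpG-dense promoters are mostly unmethylated in somatic cells, while CpG-poor sequence, imprinted control regions on 1 parental allele, and promoters of many germline genes are methylated. Reduced representation bisulfite sequencing reads the ends of MspI fragments (cut at CCGG), so it favours CpG-dense sequence and depends on that site being present in the strain measured.

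The 5 fibroblast libraries held 35442175 to 41466097 calls each. Sample 1, from its pair of libraries, held a median of 92 calls per tested tile, against 46 in sample 2, 42 in sample 3 and 43 in sample 4. Levels in samples 2 to 4 are thus the less precise ones. The labels name no molecular identifiers, and precision read from calls covers counting error only. With 2 samples against 2, an exact permutation test has 6 assignments and cannot give a two-sided p under 0.333, so no single value of the whole methylome could pass a threshold of 0.05. The p-values measure the spread between the 4 samples only, and this spread may be technical.

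The promoters that carried the clearest differences are shown first, because the reading of single CpGs depends on how they lie in the sequence. A promoter here is the stretch from 250 bases before to 50 after a RefSeq gene start. RefSeq's sequences are of build GRCm38.p6, and each was placed on the positions of the files by the spacing of its CpGs alone (9013 of 17116 promoters with enough CpGs found 1 place, of which 99.87% lay on the chromosome that RefSeq gives). The 250 bases before the start follow for 5 genes, read 5′ to 3′ along the gene, with capitals for the CpGs that had at least 10 calls in all 4 fibroblast samples. Vmn2r29 and Clcn4 were more methylated in X1 across all such CpGs, Mcts2 is an imprinted gene, Mllt11 held a short methylated stretch in BDF1-CAST alone, and Tmem267 differed between the samples of 1 strain as well as between strains.
Vmn2r29: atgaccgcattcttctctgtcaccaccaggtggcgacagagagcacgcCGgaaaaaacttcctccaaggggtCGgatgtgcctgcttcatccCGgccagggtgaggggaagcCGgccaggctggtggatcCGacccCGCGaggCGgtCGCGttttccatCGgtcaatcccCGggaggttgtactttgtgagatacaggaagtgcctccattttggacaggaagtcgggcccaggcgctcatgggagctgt
Clcn4: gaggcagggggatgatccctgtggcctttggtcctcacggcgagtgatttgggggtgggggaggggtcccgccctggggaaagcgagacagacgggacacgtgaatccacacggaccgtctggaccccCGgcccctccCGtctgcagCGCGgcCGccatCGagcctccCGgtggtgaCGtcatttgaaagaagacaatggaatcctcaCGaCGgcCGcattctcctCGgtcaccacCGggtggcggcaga
Mcts2: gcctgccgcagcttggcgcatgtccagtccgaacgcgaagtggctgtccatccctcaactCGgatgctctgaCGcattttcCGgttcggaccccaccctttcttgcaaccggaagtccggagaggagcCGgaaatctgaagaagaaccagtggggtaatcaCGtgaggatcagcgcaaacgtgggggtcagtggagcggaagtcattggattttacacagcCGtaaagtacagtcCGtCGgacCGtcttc
Mllt11: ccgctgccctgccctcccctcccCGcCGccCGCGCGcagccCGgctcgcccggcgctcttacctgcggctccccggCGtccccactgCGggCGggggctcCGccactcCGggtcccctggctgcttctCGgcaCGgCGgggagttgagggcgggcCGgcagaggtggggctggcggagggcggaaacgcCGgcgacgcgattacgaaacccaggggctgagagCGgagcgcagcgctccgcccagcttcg
Tmem267: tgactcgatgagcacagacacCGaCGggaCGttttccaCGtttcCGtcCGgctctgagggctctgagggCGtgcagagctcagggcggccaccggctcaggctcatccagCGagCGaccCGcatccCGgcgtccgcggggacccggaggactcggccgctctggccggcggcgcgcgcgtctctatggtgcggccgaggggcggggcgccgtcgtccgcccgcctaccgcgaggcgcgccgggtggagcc

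Vmn2r29 is a gene of the vomeronasal type 2 receptors that detect pheromones. Its promoter stood at 27.3 and 32.8% in the BDF1-CAST samples against 80 and 78.7% in the X1 samples (chr7:7230950-7231249, minus strand). It held 1290 to 2154 calls per sample, where the median tested promoter held 708, 361, 327 and 342 in samples 1 to 4. Whether this unusual depth bears on the level was not tested. The groups did not overlap, and the difference of mean levels was 49.3 points. It was the only promoter called of 8740 tested (0.0114% called), with an adjusted p of 0.0193 in a quasi-binomial model whose dispersion was moderated by limma. A call required at least 20 points beside an adjusted p below 0.05. The call was lost with limma on transformed levels (adjusted p = 0.0889) and with library 1 in place of the sum of 1 and 1a (0.392). The difference stayed at 46.5 to 52.0 points in these fits and without any 1 of the 4 samples. A fit without 1 sample leaves a strain with no replicate, so it cannot decide whether the call depends on that sample. The 15 CpGs with enough calls were all higher in both X1 samples than in both BDF1-CAST samples, and 14 of them lay apart by at least 20 points. The 3 CpGs after the start were at 47.2 to 63.9% in BDF1-CAST, against 90.8 to 96.1% in X1. The CpG farthest before the start, at position -202, was at 0% in both BDF1-CAST samples, against 53.8 and 42.9%, from as few as 10 calls.

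The start of Clcn4, which encodes a chloride and proton exchanger, lay 21268 bp from that of Vmn2r29 on chromosome 7. Its promoter stood at 0.883 and 12.7% against 48.4 and 48.5% (chr7:7252218-7252517, minus strand), with an adjusted p of 0.197 in the same model. The depth was uneven, at 575 to 2174 calls per fibroblast sample. In NT embryos it was 300 and 266 calls in BDF1-CAST against 908 and 1338 in X1. Whether this depth bears on the levels was not tested. All 13 CpGs of the Clcn4 promoter were higher in both X1 samples, at positions -14 to -122, and 9 of them lay apart by at least 20 points. BDF1-CAST sample 1 was at 0 to 2.86% at these CpGs and sample 2 at 4.84 to 19.2%. The promoter of Vmn2r29 also lay in a stretch of tiles higher in X1 (chr7:7230400-7231299), where 6 tiles averaged 28.3 and 28.5% against 70.2 and 64.1%.

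Among the promoters lower in X1, the shared promoter of Mllt11, first known as a fusion partner in leukaemia, and Cdc42se1, an effector of the small GTPase Cdc42, had the smallest p. It stood at 18.8 and 19.2% against 0.372 and 0.521% over the window of Mllt11 (chr3:95032549-95032848, minus strand, at least 458 calls). Its adjusted p was 0.0260, but the difference of -18.5 points was under the 20 required for a call. The difference sat in few CpGs. At positions -174 to -142, 5 CpGs were at 38.6 to 66.7% in both BDF1-CAST samples and at 4.55% or less in X1. The 6 CpGs at positions -227 to -209 were at 0 to 3.03% in all 4 samples. At positions -95 and -61 the levels were 25.7 and 15.4% against 3.45 and 0%, and 8.62 and 28.6% against 0 and 0%. Both BDF1-CAST samples thus held the same methylated stretch beside CpGs at or near 0.

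Tmem267, which encodes a transmembrane protein, and the gene 3110070M22Rik start on opposite strands and share a promoter on chromosome 13. Over the Tmem267 window the level was 27.7% in BDF1-CAST sample 1, 51.5% in sample 2, 1.98% in X1 sample 3 and 7.09% in sample 4 (chr13:120277029-120277328, plus strand, at least 303 calls). The groups did not overlap, but the adjusted p was 0.231, and the BDF1-CAST samples lay far apart. At the 7 CpGs furthest from the start sample 1 was at 0 to 3.57% and the X1 samples at 0 to 6.90%, while sample 2 was at 17.4 to 29.4%. At the 4 CpGs at positions -140 to -124 both BDF1-CAST samples were high, at 36.4 to 63.6%, and X1 was at 2.86 to 9.52%.

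**Figure D1:**
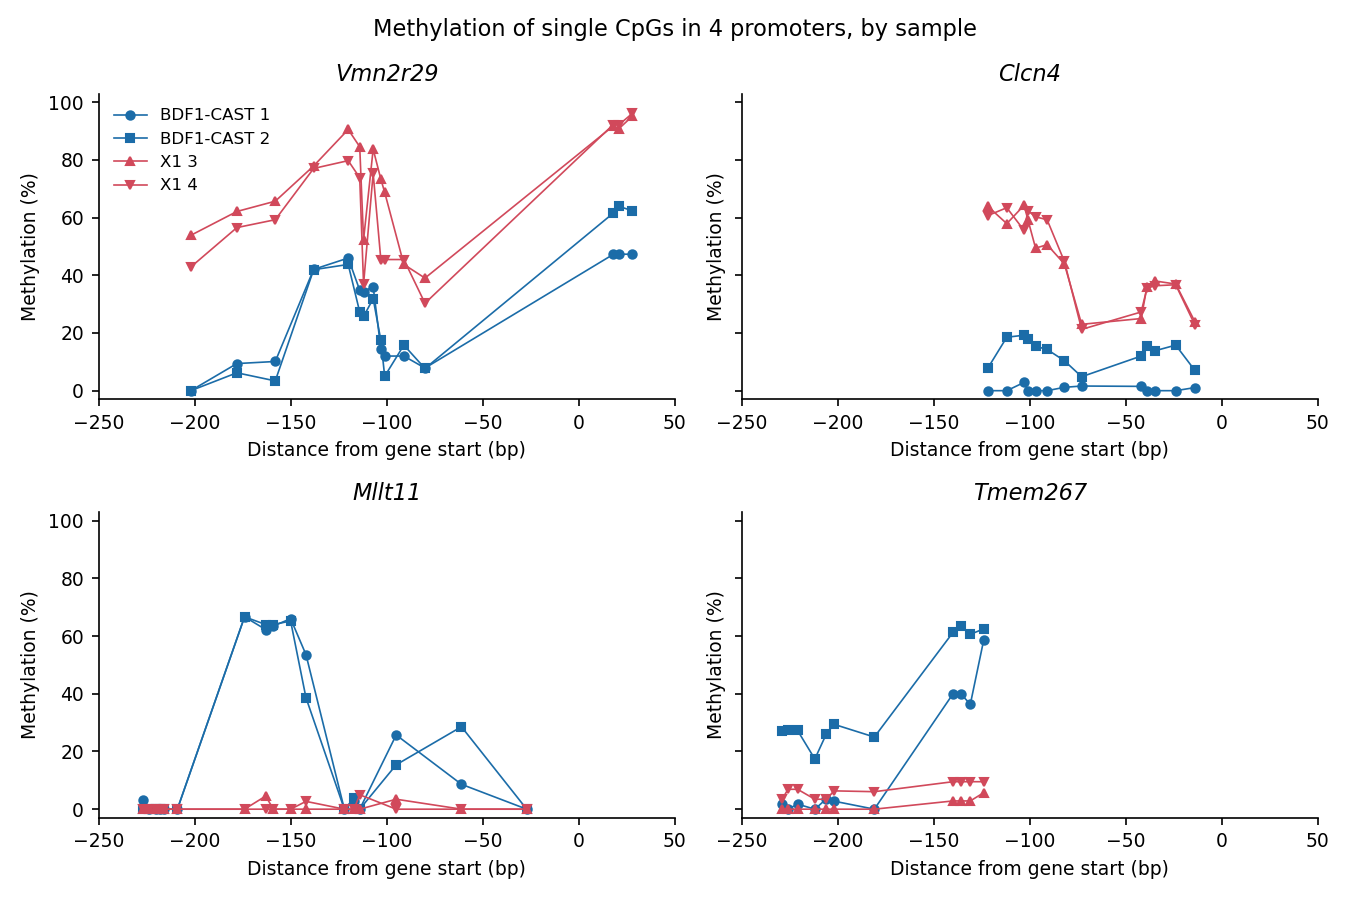
Methylation in percent of each CpG with at least 10 calls in all 4 samples, by distance in bp from the gene start, in the promoters of Vmn2r29, Clcn4, Mllt11 and Tmem267, with 1 line per sample (blue, BDF1-CAST; red, X1). The X1 lines lie above the BDF1-CAST lines at all 15 CpGs of Vmn2r29 and all 13 of Clcn4, and below them at the 5 CpGs at positions -174 to -142 of Mllt11.

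Small differences without overlap were common, at 587 promoters higher in X1 (6.72%) and 3742 lower (42.8%), and large ones were few. The distance between the closest samples of the 2 strains, here called the gap, was at least 15 points at 15 promoters higher in X1 (0.172% of those tested) and at 13 lower in X1 (0.149%). These counts come from the same values that rank the promoters and are a description. Among the 13, the windows of Mllt11 and Cdc42se1 overlap, as do those of Kin and Atp5c1 and of Tmem267 and 3110070M22Rik. The separate places are thus fewer than the windows. Higher in X1, beside Vmn2r29 and Clcn4, were promoters at partial levels. Gnat2, the transducin of cone photoreceptors, stood at 50 and 46.8% against 76.2 and 77.8%. Lypd3, a lipid-anchored surface protein, stood at 20.9 and 23.3% against 47.3 and 44.1%, and Amn, a part of the receptor for vitamin B12, at 12.3 and 10.6% against 28.5 and 32.8%. The homeobox gene Hoxa5 was at 10.8 and 12.5% against 48.5 and 31.0%, with 3 of its 8 CpGs free of overlap. D1Pas1, an RNA helicase gene active in testis, was high in both strains, at 66.3 and 59.4% against 94.3 and 82.9%. Prrt1 (8.41 and 4.17% against 62.7 and 39.6%) and Fancd2os (44.4 and 30.0% against 70.6 and 69.4%) rested on as few as 51 and 17 calls, with no single CpG at 10 calls in all samples.

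The promoters lower in X1 were mostly at or near 0 in X1. Atp5c1, the gamma subunit of ATP synthase, and Kin, a nucleic acid binding protein, start on opposite strands of chromosome 2 and stood at 18.95 and 23.5% and at 18.9 and 18.8% in BDF1-CAST, with 0% in both X1 samples for both windows. These windows overlap and are not separate results. Ankib1 stood at 20.9 and 20.1% against 1.41 and 1.05%, and Plbd1, a phospholipase B domain protein, at 20.4 and 16.9% against 0 and 0%. Arpc1a, a subunit of the actin-nucleating Arp2/3 complex, stood at 19.1 and 18.98% against 2.98 and 0%. In Arpc1a the difference lay in 4 of 9 CpGs, from 30 to 46 bases after the start, 3 of them apart by at least 20 points, while the 4 CpGs from 17 to 27 bases after the start were at 0% in all samples but 1 value of 5.88%. Dmrt3, a transcription factor gene, stood at 31.3 and 25.7% against 0 and 0%, from 35 calls in the shallowest sample.

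Most promoters were unmethylated in both strains. Of 8740 promoters, 97.6% had a mean level under 20% over the 4 samples. By their median, the levels near 0 were nonetheless slightly higher in BDF1-CAST. The median over all promoters was 1.23 and 1.18% in BDF1-CAST and 0.356 and 0.743% in X1, and 6376 promoters were lower in X1 against 2333 higher. Over all 446891 CpGs with a mean level under 5%, however, the strains overlapped. These stood at 1.01 and 0.909% against 0.648 and 0.937% (exact permutation p = 0.667, n = 2 per strain). Whether differences of this size are technical was not tested. Of the 1572 promoters with an unadjusted p under 0.05, 1410 were lower in X1. At the 97 promoters at 60% or more the order was the opposite, with medians of 80.1 and 76.8% in BDF1-CAST against 84.2 and 85.2% in X1, and 71 of the 97 were higher in X1.

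The gene lists were covered in part, and no promoter of any of them was called (background 0.0114%). Of 30 imprinted genes, 9 had a tested promoter. Mcts2, a retrogene that lies in an intron of H13 and is methylated on the maternal allele, stood at 45.2 and 37.3% against 68.8 and 61.1% (adjusted p = 0.209), and its 10 CpGs were all higher in the X1 mean, 8 of them without overlap. Zrsr1, another imprinted retrogene, was at 34.2 and 35.5% against 41.6 and 50%. One start of Gnas, which encodes a G protein subunit, was at 26.8 and 10% against 34.4 and 31.1%, and a second start was at 1.72 and 3.10% against 0.478 and 0.832%. Plagl1 (24.8 and 32.3% against 30.8 and 16.3%), Peg12 (18.1 and 19.9% against 27.4 and 12.9%) and Meg3 (49.5 and 9.09% against 14.3 and 21.8%) held partial levels at which the strains overlapped. At these 3 genes at least 1 strain's samples lay further apart than the strain means did. The CpG-dense promoters of Igf2, Grb10 and Zim1 were at 0 to 3.34% in all 4 samples.

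The promoters of genes used in germ cells were methylated in both strains, which is the usual state of somatic cells. The 8 tested promoters of Asz1, Dazl, Ddx4, Hormad1 (a pair of windows), Mael, Sohlh2 and Tex101 stood at 74.0 to 100% in all samples. X1 was higher at 7 of the 8, without overlap at 4, against 6.72% of all promoters. The windows of Hormad1 are shifted by only a few bases, and by gene X1 was higher at 6 of 7, without overlap at 3. The median difference was 4.28 points, against -0.459 over all promoters tested and 3.21 over the 97 promoters at 60% or more. Of those 97, 71 were higher in X1, so the direction was shared by methylated promoters in general. Tex101 was at 84.3 and 82.4% against 90.4 and 90.7%, with an adjusted p of 0.237. Of 16 posterior Hox genes, which are active in tail tissue, 6 were tested: Hoxd12 was partly methylated at 33.5 and 35.8% against 27.7 and 29.7%, Hoxd10 stood at 7.36 and 5.63% against 19.3 and 12.3%, and the others were at 7.73% or less. Histocompatibility genes (H2-D1, H2-K1, H2-Q4 and H2-Q7) were at 4.56% or less in every sample.

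Of 8 genes of the methylation machinery 5 were tested, and none had a methylated promoter. Dnmt1, Tet1, Tet3 and Uhrf1 were at 2.01% or less in all samples. Dnmt3a has a pair of starts, of which 1 was at 2.47% or less and the other at 7.86 and 7.01% against 4.29 and 4.48% (adjusted p = 0.318). Of the markers of cell types, the fibroblast genes Vim and Col1a2 were at 0 to 5.19%. No promoter of the 6 epithelial, 4 blood or 3 endothelial markers could be placed and tested, so the labelled cell type could not be checked against them. Acan, a cartilage proteoglycan, stood at 7.21 and 5.65% against 0.952 and 0.426% (adjusted p = 0.197), and Des, of muscle, at 7.66 to 9.58%.

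Over the whole methylome X1 was slightly more methylated. The mean level of CpGs was 37.5 and 36.2% in BDF1-CAST, against 39.1 and 38.3% in X1. The strain means were 36.9% ± 0.901 (SD, n = 2) and 38.7% ± 0.621 (SD, n = 2), a difference of 1.84 points that reached the smallest p possible (two-sided exact permutation test, p = 0.333). The samples did not overlap. Weighted by calls, the difference was 0.279 points and the strains overlapped (exact permutation p = 0.667, n = 2 per strain). CpGs at 80% or more made up 27.3 and 24.7% in BDF1-CAST and 30.0 and 28.4% in X1, CpGs at 20 to 80% made up 20.8 and 22.6% against 19.6 and 20.2%, and CpGs under 20% made up 51.8 and 52.7% against 50.4 and 51.4%. X1 thus held more CpGs at full and fewer at intermediate levels.

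The order of the samples was the same on every chromosome. On all 20 chromosomes sample 3 was highest, followed by sample 4, sample 1 and sample 2, and X1 exceeded BDF1-CAST by 1.66 to 2.27 points. Chromosomes are not replicates, since they share the 4 libraries. The X, of which a male has a single copy, was the most methylated, with 64.9 and 63.2% against 66.4 and 65.8% over 29236 CpGs. Autosomes averaged 36.7 and 35.4% against 38.3 and 37.4%.

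**Figure D2:**
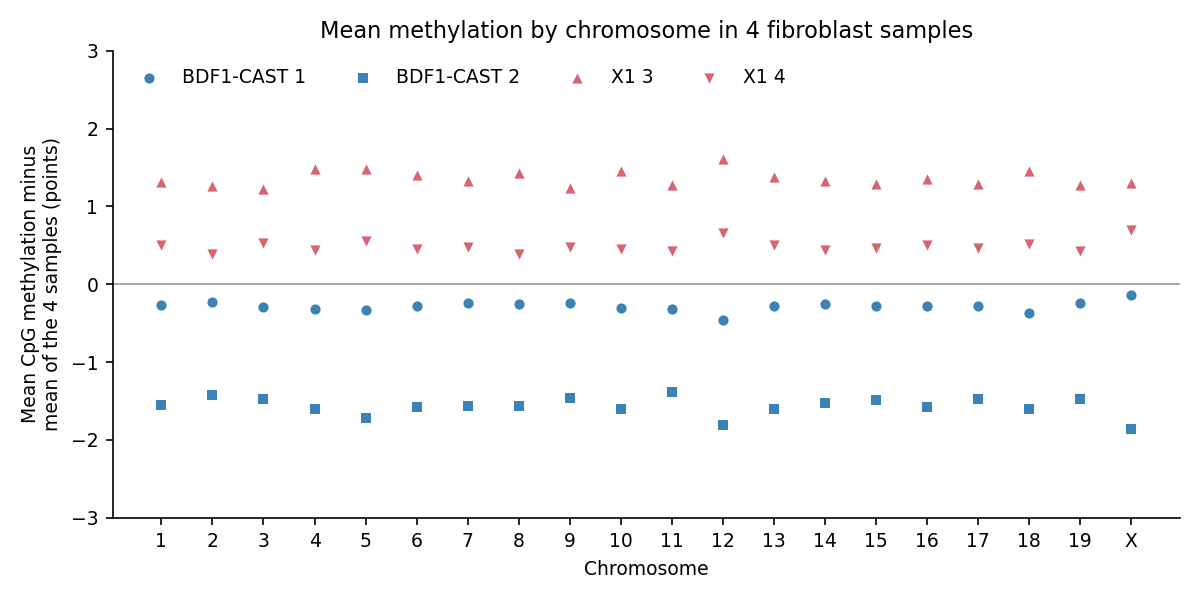
Mean CpG methylation of each of the 4 fibroblast samples on each chromosome, as the distance in percentage points from the mean of the 4 samples on that chromosome (blue, BDF1-CAST; red, X1; points are single samples). The samples keep 1 order on all 20 chromosomes, with both X1 samples above both BDF1-CAST samples.

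The difference varied with the CpG density of the tiles and with their level. The level itself was lower in denser tiles, and density and level were not separated from each other. The authors' deposited CpG density of a tile is the mean number of CpGs within 50 bp of its CpGs. In the sparsest tiles (density 1 to 2) the level was 67.0% ± 2.15 in BDF1-CAST and 71.5% ± 1.5 in X1 (SD, n = 2 each), a difference of 4.46 points. It was 3.10 points at a density of 4 to 6, 1.51 at 6 to 8 and 0.355 at 8 to 12. In the densest tiles, at 12 or more, where all samples were nearly unmethylated, the sign was the other way, with 2.57% ± 0.174 against 2.03% ± 0.189 (SD, n = 2 each). In each of these classes the strains did not overlap (exact permutation p = 0.333, the smallest possible). To separate level from difference, tiles were placed in a class by samples 1 and 3 and compared between samples 2 and 4, and the reverse. Tiles at 20 to 40% were then 6.08 and 8.46 points higher in X1, those at 40 to 60% 6.82 and 5.96 points, and those at 80 to 95% 3.52 and 2.08 points. Tiles under 5% differed the other way, by -0.263 and -0.416 points.

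Samples of different strains differed at more tiles than samples of 1 strain, with 1 exception. A difference of at least 20 points was found at 6.80% of tiles between the BDF1-CAST samples and at 9.24% between the X1 samples. Between strains it was found at 10.1% (samples 1 and 3), 8.56% (1 and 4), 14.8% (2 and 3) and 12.6% (2 and 4), so the pair 1 and 4 differed less than the X1 samples did from each other. Libraries 1 and 1a, which are joined as 1 sample, differed that much at 7.84% of 449308 tiles. At 50 points or more the shares were 0.143 and 0.220% within strains and 0.230 to 0.827% between them.

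No tile of 100 bp was called between the strains. The quasi-binomial model with its dispersion moderated by limma called 0 of 465710 tiles (0%), the smallest adjusted p was 0.642, and limma on transformed levels called 0 as well. At an unadjusted p under 0.05 were 35031 tiles (7.52%), 23962 of them higher in X1 and 11069 lower. Among tiles with a mean level of 10 to 90%, a restriction chosen after seeing the data, the model called 3790 of 302154 (1.25%), 2951 higher and 839 lower in X1, and limma called 0. In 1000 bp tiles, 260 of 230955 were called (0.113%), 197 higher and 63 lower in X1, and limma on transformed levels called 0. The prior degrees of freedom were 1.79 in the main fit, 12.7 at mean levels of 10 to 90% and 5.68 in 1000 bp tiles. The counts called by the model thus differed between fits that differ in the moderation of the dispersion and in the tiles tested. The part of each was not separated.

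The tiles in which the strains lay apart were counted as a description. A gap of at least 20 points, which asks both samples of a strain to lie beyond both of the other, was found at 6775 tiles higher in X1 (1.45%) and 1590 lower (0.341%). At a gap of at least 50 points the directions were more even, with 104 tiles higher in X1 (0.0223%) and 59 lower (0.0127%), and at 80 points there were 7 each. Most stood alone: joined within 1000 bp, the tiles with a gap of 20 points formed 6201 regions higher and 1500 lower in X1, of which 92.1 and 94.8% were a single tile. In windows of 5 Mb the share of tiles higher in X1 had a median of 1.30% and reached 4.42% at 185 to 190 Mb of chromosome 1, where 31 of 701 tiles were. The share lower in X1 had a median of 0.287% and reached 1.28% at 35 to 40 Mb of chromosome 14.

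The 10 tiles in each direction with at least 3 CpGs and the largest gap were taken by rule, and all had an adjusted p of 0.642. The first, chr14:90299000-90299099, was at 0% in both BDF1-CAST samples, against 90 and 91.4% (40 to 77 calls). Its 4 CpGs behaved alike, with 0% at each in BDF1-CAST and 80 to 100% in X1. The 1000 bp tile around it held the same calls and was called (adjusted p = 0.0103). In the quasi-binomial model its unadjusted p was 8.33e-07, against 0.000135 for the 100 bp tile. As the counts were the same, the call came from the fit at the other tile size and not from more calls. The second, chr1:172974900-172974999, was at 0.450 and 2.25% against 89.9 and 90.8%, again at all 3 of its CpGs. The tile chr11:5907200-5907299 was at 7.47 and 26.3% against 94.0 and 85.6%, and the tile chr5:38868600-38868699, with 9 CpGs, at 30.6 and 24.3% against 88.6 and 86.8%. On chromosome 4 a pair of nearby tiles, at 146593500 and 146593700, stood at 25.4 and 30.1% against 91.1 and 87.0% and at 12.8 and 10.3% against 68.9 and 83.5%.

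Over all 978777 tested CpGs, 162614 were higher in X1 without overlap and 94340 were lower. The named tiles were chosen by a gap that these same calls make up, so counts of their CpGs are a description. Of the 46 CpGs of these 10 tiles that had enough calls, 42 were higher in X1 without overlap. Of the other 4, 1 lay in the second of the nearby tiles on chromosome 4 and 3 in the tile chr5:137730400-137730499, which lies 919 bp downstream of the start of Ache, the gene of acetylcholinesterase. This tile was at 2.87 and 5.05% against 54.6 and 63.4% over all its calls. Its 3 CpGs that reached 10 calls in all samples were, however, at 0 to 1.96% in all 4, and on those alone the difference was -0.641 points. The difference lay in CpGs with fewer calls in at least 1 sample.

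In the other direction the first tile, chr1:8037200-8037299, was at 90.5 and 86.8% against 9.84 and 16.3% (183 to 412 calls). The tile chr15:77522200-77522299 was at 71.4 and 56.3% against 1.56 and 0.929%, with all 3 of its CpGs apart by at least 20 points. The tile chr8:122109900-122109999 was similar at 60.5 and 46.8% against 1.88 and 0.845%. The tile chr4:15233800-15233899 (81.3 and 86.3% against 28.8 and 23.1%) lay in a 1000 bp tile that was called (adjusted p = 0.0228). The tile chr7:52384000-52384099 lies 15 bp downstream of the start of Rpl13a, which encodes a ribosomal protein. It was at 46.1 and 48.7% in BDF1-CAST and 0% in both X1 samples, but only 1 of its 3 CpGs was free of overlap. All 34 CpGs of these 10 tiles were lower in X1, 32 of them without overlap. As the tiles were chosen by their gap, this too is a description.

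**Figure D3:**
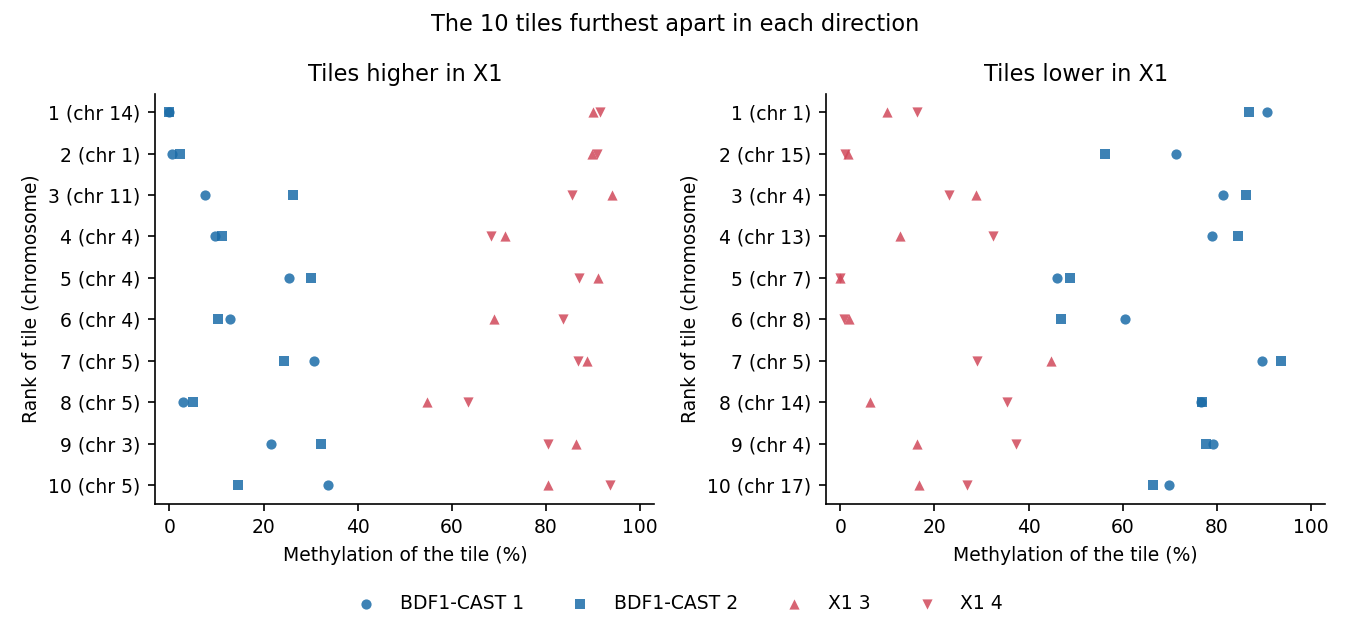
Methylation in percent of the 10 tiles of 100 bp with the largest gap in each direction, ranked from 1 to 10 with their chromosome, with 1 point per fibroblast sample (blue, BDF1-CAST; red, X1). In each tile both X1 samples lie on 1 side of both BDF1-CAST samples, from 0% against 90 and 91.4% in the first tile higher in X1 to 69.9 and 66.5% against 16.7 and 26.9% in the last tile lower in X1.

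Longer stretches were few. Higher in X1, 64 regions held at least 3 tiles with a gap of 20 points, and lower in X1, 11 did. On chromosome 13, 5 tiles in chr13:3477400-3478299 averaged 10.2 and 4.96% against 54.0 and 54.9%. On chromosome 15, 5 tiles in chr15:79658800-79659499, 5263 bp downstream of the start of Cbx6, a Polycomb chromobox gene, averaged 42.0 and 41.4% against 76.7 and 78.8%. Lower in X1, 3 tiles in chr7:31300300-31300899 averaged 76.0 and 80.8% against 18.2 and 11.1%, and 3 tiles in chr17:35137200-35137499 averaged 85.6 and 83.5% against 45.8 and 45.4%. The longest region lower in X1 was on the X, with 4 tiles in chrX:166428100-166428699 at 62.0 and 59.8% against 30.6 and 22.7%.

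Single CpGs showed another pattern. No CpG was called by the quasi-binomial model, where the smallest adjusted p was 0.991 and the prior degrees of freedom were 0.442. As for tiles, this does not show that the strains were alike. At an unadjusted p under 0.05 were 13477 of 978777 CpGs. On transformed levels limma called 634, 364 higher and 270 lower in X1. A gap of at least 50 points was found at 402 CpGs higher in X1 (0.0411%) and 341 lower (0.0348%). At 80 points the balance was the other way, with 28 CpGs higher and 114 lower in X1. Neighbouring CpGs mostly did not share the differences lower in X1. Of the CpGs with a gap of 80 points lower in X1, 108 had a neighbouring tested CpG within 50 bp on either side. The mean difference of these neighbours was under 10 points in either direction at 81 of the 108 (75.0%), and at least 20 points the same way at 6. Of the 28 higher in X1, 11 (39.3%) had neighbours that differed by less than 10 points, and 14 had neighbours that differed by at least 20 points the same way.

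The 4 CpGs in each direction with at least 20 calls in each sample and the largest gap were taken after values had been seen. Lower in X1 stood position 177831171 of chromosome 1, at 98.8 and 98.3% against 0 and 0%, while the CpG 18 bp away was at 88.6 and 94.9% against 100 and 79.2%. At position 135792438 of chromosome 4 the level was 98.9 and 96.3% against 0 and 0%, with 98.9 and 96.4% against 95.2 and 100% at the CpG 11 bp away. At position 56367701 of chromosome 7 it was 97.1 and 96.4% against 0 and 0%, with 78.9 and 93.8% against 61.0 and 52.5% at the CpG 12 bp away. In these 3 cases a CpG read at 0 in X1 lay beside one that was methylated in all 4 samples. Bisulfite data read a T in the place of the C as an unmethylated C, the sequences of the strains were not analysed here, and the part of such changes in these levels and in the counts of CpGs at 0 was not tested. The fourth, position 146561816 of chromosome 6 at 96.6 and 100% against 0 and 0%, differed in that the CpG 21 bp away was at 0 and 14.0% against 0 and 0%. The 4 CpGs higher in X1 were at 0 to 0.962% in BDF1-CAST and at 89.1 to 100% in X1, and the nearest tested CpGs, 6 to 19 bp away, were at 63.6% or more in all 4 samples.

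The NT embryos did not always share these levels. At the CpG on chromosome 1 an X1 NT embryo sample stood at 76.9%, beside 97.1 and 76.9% in BDF1-CAST, where both X1 fibroblast samples had 0. At position 75232709 of chromosome 14, at 0 and 0% against 100 and 98.5% in fibroblasts, NT embryos had 57.1 and 71.4% against 16.7 and 33.3%. At position 164461209 of chromosome 2, at 0.962 and 0% against 91.7 and 100% in fibroblasts, NT embryos had 0% in both BDF1-CAST samples and in the X1 sample with enough calls. At the other 5 CpGs NT embryos had enough calls in some samples only. The CpGs on chromosomes 4, 6 and 7 were lower in X1 there too, at 58.3% in a BDF1-CAST sample against 0% in an X1 sample, at 9.38 and 85.7% against 0%, and at 39.0% against 12.9%. Position 84823129 of chromosome 15 was at 0% against 97.0%, and the fifth had enough calls in 1 BDF1-CAST sample only, at 0%. These few CpGs thus included cases that NT embryos repeated and cases that they did not.

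Intermediate levels opposite full ones were also unequal between the strains. Of 90103 CpGs at 90% or more in both X1 samples, 735 had a BDF1-CAST mean of 40 to 60%. Of 64291 CpGs at 90% or more in both BDF1-CAST samples, 65 had an X1 mean of 40 to 60%. Of 405224 CpGs at 5% or less in both X1 samples, 265 had a BDF1-CAST mean of at least 60%, and of 407882 CpGs at 5% or less in both BDF1-CAST samples, 45 had an X1 mean of at least 60%. These counts are a description, and more CpGs of each kind had BDF1-CAST as the strain at the intermediate or higher level. Levels of 0 and intermediate levels among them carry the same limit, since a changed base cannot be told apart from an unmethylated C in these files. Where a tested CpG lay within 50 bp, it differed by under 10 points at 312 of 599 (52.1%) of the 735. At the 65 this was so at 16 of 49 (32.7%). At the 265 it was so at 162 of 247 (65.6%), and at the 45 at 14 of 43 (32.6%). The part of changed bases in these counts was not tested.

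The NT embryos gave the same strain comparison in other samples. They were made from nuclei of such fibroblasts, so they are other samples but may share donor cultures. The tiles compared below had no minimum number of CpGs. A changed base would be shared by both stages of a strain, and its part in the shares below was not tested. Of the 6775 tiles higher in X1 fibroblasts by a gap of 20 points, 2166 had at least 10 calls in all 4 NT embryo samples, and 84.3% of these were higher in X1 there too, against 55.6% of all 279699 tiles measured in both stages. Of the 1590 tiles lower in X1, 592 had such calls and 77.5% were lower in X1 NT embryos, against 37.3% of all tiles. The median difference in NT embryos was 24.4 points where fibroblasts had 31.7, and -18.9 points where fibroblasts had -32.5. Both X1 NT embryo samples lay beyond both BDF1-CAST ones in 51.7% of the tiles higher in X1, against 25.6% of all tiles, and in 50.3% of those lower, against 11.9%. Without X1 fibroblast sample 3 the share of tiles lower in X1 that kept their direction was 50.2%. Of the 1000 bp tiles called, 154 of 167 higher in X1 (92.2%, against 66.0% of all) and 51 of 57 lower in X1 (89.5%, against 33.1%) had the same direction in NT embryos.

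Single regions differed in how far the NT embryos followed. Vmn2r29 was at 26.5 and 24.4% against 69.1 and 52.4% in NT embryos, without overlap as in fibroblasts. The promoter of Mllt11 stood at 31.1 and 25.8% against 0 and 0%, and that of Tmem267 at 53.5 and 32.3% against 3.71 and 1.07%, with BDF1-CAST sample 1 here the higher one. The imprinted gene Mcts2 stood at 63.6 and 34.6% against 6.72 and 66.9%, with overlap. Clcn4 was at 11.0 and 2.26% against 21.8 and 26.2%, and Hoxa5 at 0 and 6.86% against 16.7 and 22.8%. The tile on chromosome 11 stood at 7.94 and 17.6% against 86.5 and 83.3%. In other tiles NT embryos were further from fibroblasts. The tile chr8:122109900-122109999 was at 1.69 and 5.94% against 0 and 0.476%, chr1:8037200-8037299 at 75.6 and 89.5% against 16.8 and 86.7%, and chr5:38868600-38868699 at 57.4 and 24.1% against 38.3 and 2.78%. The 1000 bp tile chr8:126420000-126420999, which ends 1326 bp upstream of the start of Acta1 (skeletal muscle actin) and was called lower in X1 fibroblasts, was at 31.2 and 20% against 0 and 90.9%, from 11 to 93 calls. Of the CpGs with X1 at 5% or less and BDF1-CAST at 60% or more, 58 had enough calls in NT embryos, where their median was 79.3 and 61.2% in BDF1-CAST and 0% in both X1 samples.

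**Figure D4:**
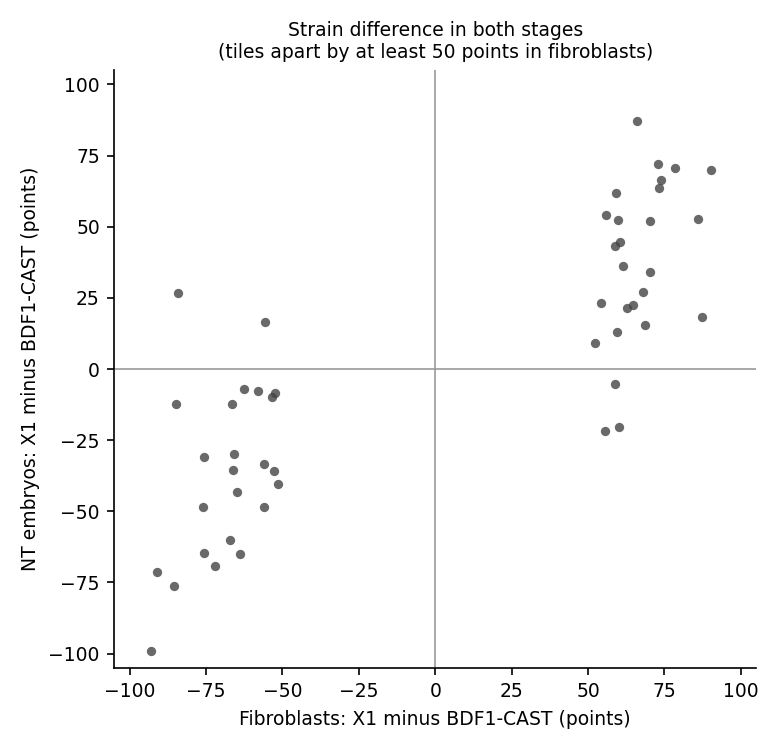
Difference of mean methylation, X1 minus BDF1-CAST in percentage points, in fibroblasts (horizontal axis) and in NT embryos (vertical axis), for the tiles with a gap of at least 50 points in fibroblasts and at least 10 calls in all 4 NT embryo samples; each point is 1 tile. On the right, 23 of 26 tiles are above 0 in NT embryos, and on the left, 22 of 24 are below 0. The tiles had no minimum number of CpGs, and the part of changed bases was not tested.

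Many CpGs were read in 1 strain only. Of 1163174 CpGs with at least 10 calls in both BDF1-CAST samples, 52780 (4.54%) had no call in either X1 sample. Of 1100471 CpGs with at least 10 calls in both X1 samples, 1764 (0.160%) had no call in either BDF1-CAST sample. Sample 1 was deeper than the others, but the imbalance was also seen against sample 2 alone. There 5.05 and 5.03% of the CpGs covered in BDF1-CAST sample 2 were unseen in X1 samples 3 and 4, and 0.361 and 0.775% of those covered in X1 samples 3 and 4 were unseen in sample 2. Within strains the share was 0.0193 to 0.344%. The NT embryos showed it too. Of the 52780 CpGs, 43845 (83.1%) had no call in the X1 NT embryos either, against 5.51% of all CpGs covered in BDF1-CAST, and 97.9% had a call in BDF1-CAST NT embryos. Of the 1764 CpGs, 1198 (67.9%) had no call in BDF1-CAST NT embryos, against 0.884% of all CpGs covered in X1.

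The CpGs read in BDF1-CAST only were spread over the autosomes and scarce on X. Their share was 3.42 to 5.41% on the autosomes, highest on chromosome 7 and lowest on chromosome 19, and 1.33% on X. CpGs read in X1 only made up 0.447% on chromosome 4, 0.355% on chromosome 14, 0.313% on chromosome 15 and 0.286% on chromosome 7, and 0.00298% (1 CpG) on chromosome 19. In windows of 5 Mb with at least 500 covered CpGs, the share read in BDF1-CAST only had a median of 4.13% over 527 windows and reached 12.1% at 135 to 140 Mb of chromosome 6. The share read in X1 only was 0 in 165 of 528 windows and reached 3.26% at 95 to 100 Mb and 2.75% at 85 to 90 Mb of chromosome 14, and 2.41% at 135 to 140 Mb of chromosome 4.

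**Figure D5:**
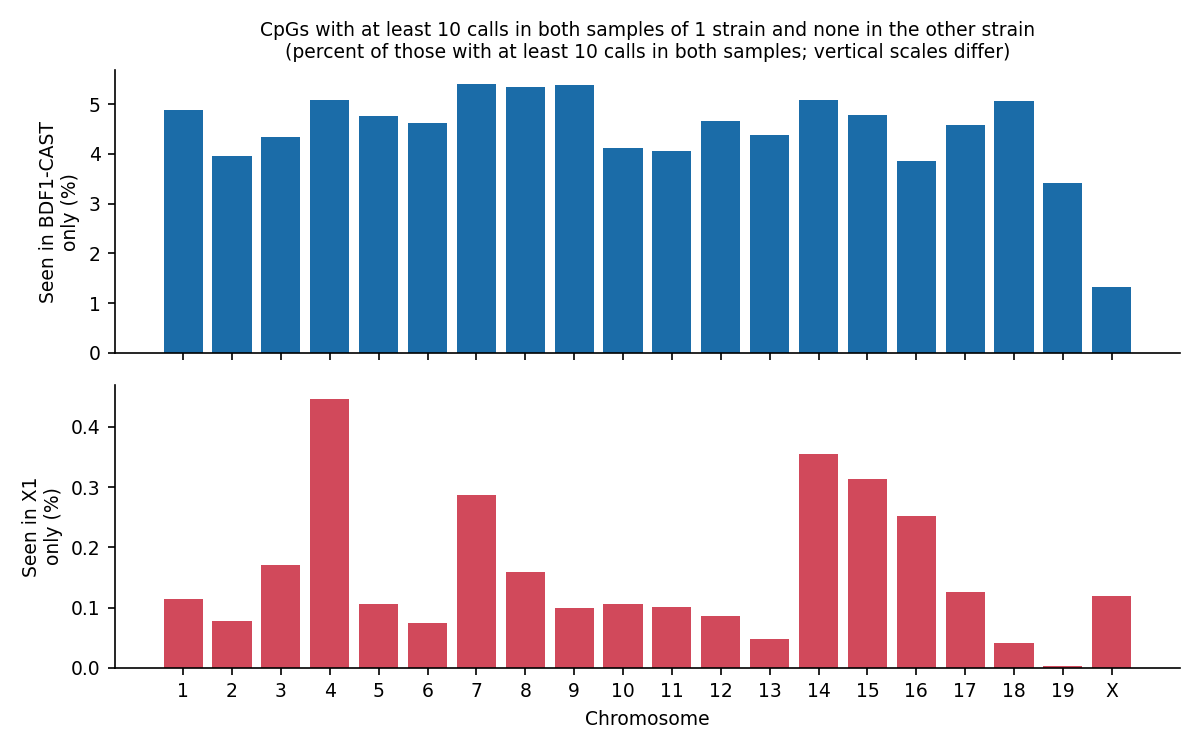
Percent of CpGs with at least 10 calls in both samples of 1 strain that had no call in either sample of the other, by chromosome (top, read in BDF1-CAST only; bottom, read in X1 only; the vertical scales differ, both start at 0). The upper bars lie between 3.42 and 5.41% on autosomes and at 1.33% on X, and the highest lower bar is 0.447% on chromosome 4.

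Strain-only CpGs mostly lay away from shared ones. Only 19.6% of those of BDF1-CAST and 15.5% of those of X1 lay within 50 bp of a CpG covered in all 4 samples, and the median distances were 1026 and 941 bp. They were more methylated than the shared CpGs: in BDF1-CAST their mean was 51.2 and 49.0% against 37.5 and 36.2% at shared CpGs, and in X1 64.8 and 61.8% against 39.1 and 38.3%. Their depth in BDF1-CAST, at medians of 38 and 19 calls, was below that of all covered CpGs, at 50 and 25, and in X1 it was about the same, at 24 and 23 against 24 and 24. In a row along the covered CpGs they formed 25938 runs in BDF1-CAST, 50.3% of a single CpG, and 1121 runs in X1, 66.7% of a single CpG.

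The longest runs were mostly unmethylated. In BDF1-CAST the longest was 20 CpGs in chr19:36909074-36909347, 353 bp downstream of the start of Tnks2, which encodes a tankyrase. It stood at 0.752 and 0.226% methylation, with 404 and 313 calls in the BDF1-CAST NT embryos and 0 calls in X1 fibroblasts and X1 NT embryos. A run of 17 CpGs in chr5:104475601-104475924 covered the start of Nudt9, an ADP-ribose pyrophosphatase, at 0.258 and 1.16%, and a run of 18 CpGs in chr4:57969246-57969569 covered the start of Gm35344, at 0.379 and 0.822%. The other BDF1-CAST runs named by the rule, on chromosomes 18 and 5, spanned 33519 and 36119 bp and so joined separate fragments. In X1 the longest run was 11 CpGs in chr7:25087844-25088177, 3277 bp upstream of the start of the zinc finger gene Zfp61. It was methylated at 81.7 and 87.2%. A run of 9 CpGs in chr17:35998201-35998325 covered the start of Nrm, of the nuclear envelope, at 0% in both X1 samples, with 254 and 201 calls in X1 NT embryos and 0 in BDF1-CAST. A second run of 9 CpGs, chr1:174462666-174462961, was at 20 and 11.1%, and the remaining runs, on chromosomes 5 and 3, were at 0 to 0.595%. With tiles restricted to CpGs that had at least 10 calls in all 4 samples, 5772 tiles in place of 6775 lay higher in X1 by a gap of 20 points, and 1422 in place of 1590 lower.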

How the data were processed

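Reduced representation bisulfite sequencing gave 5 fibroblast libraries and, for reference, 4 NT embryo libraries. The authors deposited values per CpG without a header row, read here as the count of calls and the count of methylated calls. Per the submitters' processing notes the build is mm9. Which aligner and caller were used is not given in the sources used here. The CpG density score of a tile was taken from the authors' deposited table, and the 26 columns of per-sample values of that table were not used.

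Libraries 1 and 1a were summed into 1 sample. Calls were summed in 100 bp tiles and, as an alternative, 1000 bp tiles. A quasi-binomial logistic model with strain as its term was fitted to each CpG, tile or promoter with at least 10 calls in each of the 4 samples. Pearson dispersions were moderated with squeezeVar of limma 3.58.1 under R 4.3.3, with a floor of 1, and F tests were adjusted by Benjamini-Hochberg. Units were called at an adjusted p under 0.05 and at least 20 points. The model was tested on simulated tiles at intermediate levels only. That test does not cover the tiles near 0 or 100% that enter the main fit. Single values were compared by two-sided exact permutation tests. Tables were built with pandas 2.3.3 and numpy 2.4.6 under Python 3.11.15.

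Named tiles were to be the called ones. With fewer than 5 called per direction, the 10 with at least 3 CpGs and the largest gap were named, with 5 regions per direction and 5 strain-only runs per strain. The members, lists and tests were chosen with earlier results of these data known. No annotation of mm9 was used, so the lists, planned for genes of such an annotation, were read at placed promoters instead. Promoters (250 bases before to 50 after 32851 RefSeq starts of GRCm38.p6) were placed where at least 6 CpG spacings in a row recurred at 1 place and no position of the files contradicted the sequence. The 12 placed on another chromosome were left out. This step, the counts by gap and the choice of promoters with a gap of at least 15 points were added after the files had been seen.

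Alternatives covered minimum calls of 5 and 20, the treatment of library 1a, each sample left out, limma on arcsine square root levels, a trended dispersion, all 8 samples, minimum differences, CpG sets, tile size, autosomes and weighting.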

Additional observations from a re-analysis of the deposited data

Results flagged for a closer look

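At the promoter of the imprinted retrogene Zrsr1 the strains were ordered oppositely in the 2 stages, with no overlap in either. Fibroblasts stood at 34.2 and 35.5% in BDF1-CAST against 41.6 and 50% in X1, a difference of 11.0 points. NT embryos stood at 81.0 and 69.3% against 21.2 and 48.3%, a difference of -40.4 points. At the promoter of Cdk5rap1, all fibroblast levels were between 0.0793 and 1.42%, and X1 was higher by 0.720 points. In NT embryos, at 2.15 and 3.84% against 0 and 0%, X1 was lower by 2.99 points (a difference of -2.99). The change between stages was not tested in either case. They were 2 of 38 promoters of the gene lists with enough calls in the NT embryos (5.26%), beside 210 of all 8428 promoters with such calls (2.49%). Among items chosen for a large gap in fibroblasts, none of the 15 named tiles, 4 named 1000 bp tiles and 22 promoters with a gap of at least 15 points that had such calls was reversed in this way.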

How the results depend on the processing

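No paired analysis was possible because the strains compared share no replicate number (1 and 2 against 3 and 4). The mean difference kept its sign in all 11 alternatives, from 0.279 points weighted by calls to 3.07 points over tiles weighted equally, and X1 was higher on 20 of 20 chromosomes without any 1 sample. The 0 calls among 100 bp tiles became 3790 when tiles were limited to mean levels of 10 to 90% and 260 in 1000 bp tiles. They stayed 0 under the other alternatives that kept at least 2 samples per strain. Among these, the other minimum differences reuse the same fit, with its smallest adjusted p of 0.642, and could not change the 0. Fits with 1 sample in a strain cannot decide counts of calls. The 260 calls in 1000 bp tiles became 515 at 20 calls and 0 with limma. Single CpGs gave 634 calls with limma and 5309 at mean levels of 10 to 90%. The 1 promoter called became 0 with library 1 without 1a and with limma, and 18 at mean levels of 10 to 90%. It became 3 with libraries 1 and 1a as 2 samples, which counts 1 sample as a pair. Tiles higher in X1 by a gap of 20 points numbered 3908 at 20 calls, 3727 with 1 and 1a as 2 samples and 13955 to 27286 without 1 sample. Those lower numbered 919, 988 and 4257 to 7441. With 1 sample in a strain the condition is met more easily. The share of tiles lower in X1 with the same direction in NT embryos was 50.2 to 71.4% without 1 fibroblast sample. CpGs read in BDF1-CAST only numbered 23932 at 20 calls and 55143 to 81117 without 1 sample, the highest without sample 2. Those read in X1 only numbered 894 and 1919 to 3458, the highest without sample 1. Of 358 values of the 20 named tiles under alternatives, 1 reversed, that near Ache at -0.641 points on shared CpGs. Other causes of these changes were not tested. Depth limits single CpGs most, with medians of 25 to 54 calls per sample.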
